A study of Bos taurus with 60 samples.

Results

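The microRNAs bta-miR-10a, bta-miR-10b, bta-miR-99a-5p, bta-miR-99b, bta-miR-100, bta-miR-125a and bta-miR-125b were described in bovine liver, 7 of 1030 mature miRNAs counted. They were taken by name from the miRNA rows of the counts. Liver small RNA had been sequenced from 60 castrated males (steers), 1 library each, with 20 Angus, 20 Charolais and 20 Kinsella Composite (KC) steers, the last a composite population. In each breed 6 steers were low-RFI, 6 were high-RFI and 8 had no RFI group in their labels. Residual feed intake (RFI) is the feed an animal eats beyond what its size and growth predict, so a low-RFI steer is the efficient one. All steers shared 1 finishing diet and no treatment. According to the methods the RFI groups were chosen both for extreme RFI and for miRNA profiles that resembled the rest of their breed, and the breeds differed in age at slaughter, so breed and age cannot be told apart here. Steers of a breed shared sires (7 in Angus, 5 in Charolais and 11 sire labels in KC), so the p-values measure the spread between related animals.

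A miRNA guides the silencing complex to messenger RNAs that pair with its seed, bases 2 to 8 from the 5′ end, and the messages are then destabilized or translated less. The miR-10 genes lie within the HOX clusters, which lay out the body axis. Their close relatives miR-100 and miR-99 lack a U inside the miR-10 seed. The miR-99, let-7 and miR-125 genes form clusters that are conserved among animals, in which miR-125 is the counterpart of lin-4, the miRNA of developmental timing in worms. In adult tissues these families are known for high levels in connective tissue, vessels and smooth muscle, and miR-99 and miR-100 for targets in the mTOR growth pathway.

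The mature sequences are shown because they set which members share a seed and which can exchange reads. They were read from the study's list of known bovine miRNAs, with the seed in capitals:
bta-miR-10a: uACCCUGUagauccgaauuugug
bta-miR-10b: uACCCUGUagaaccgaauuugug
bta-miR-99a-5p: aACCCGUAgauccgaucuugu
bta-miR-99b: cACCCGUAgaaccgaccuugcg
bta-miR-100: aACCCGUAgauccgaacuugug
bta-miR-125a: uCCCUGAGacccuuuaaccugug
bta-miR-125b: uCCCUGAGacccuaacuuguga

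The 7 sequences fell into 3 seed groups, and none of the other miRNAs among the 588 listed sequences carried any of the 3 seeds. Within the first seed group, miR-10a and miR-10b differed at 1 of 23 bases (U12A, counted from the 5′ base of miR-10a). In the second, miR-99a-5p and miR-100 differed at 1 of the 21 bases they overlap by (U16A, counted from the 5′ base of miR-99a-5p), while miR-99b differed from each at 4 bases. The counts of miR-10a against miR-10b and of miR-99a-5p against miR-100 are therefore less certain than the others, because the counting could assign a read with 1 sequencing error to the wrong member. In the third group miR-125a and miR-125b differed at 7 of 22 bases.

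The genes of the members lie in 5 places. In the RefSeq annotation of the ARS-UCD2.0 assembly, used for names and neighbours only, MIR10A lies within HOXB3 and beside HOXB4, and MIR10B lies within HOXD4. MIR99A, MIRLET7C and MIR125B-2 are neighbours, as are MIR100, MIRLET7A-2 and MIR125B-1, and as are MIR99B, MIRLET7E and MIR125A. Mature miR-125b thus has 2 precursors in different clusters, whose counts differed by a median of 0.766%, so the table does not separate them. The 3 clusters make miR-99a-5p with miR-125b, miR-100 with miR-125b, and miR-99b with miR-125a the pairs of shared origin.

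Between 1930859 and 6759381 counts were available per steer, and the KC libraries were the deepest (median 5547018, against 4405876 in Charolais and 3720336 in Angus). Every member had at least 974 counts in every steer. Markers of hepatocytes (5 of 5 measured, miR-122 among them) summed to between 282261 and 577246 CPM (counts scaled to libraries of one common size) in each steer and the 7 muscle miRNAs to at most 61.4 CPM. The tissue is a mixture of cells, so fewer cells of a type and less of a miRNA per cell cannot be told apart in any result here.

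The members together made up a median of 2.46% of the miRNA reads, from 0.929% to 7.39% of a library. By mean count miR-100 ranked 15th of 1030, miR-10a 24th, miR-10b 26th, miR-99b 29th, miR-125a 33rd, miR-125b 35th and miR-99a-5p 41st. Levels are given as CPM on library sizes scaled by TMM (trimmed mean of M-values). The lowest, median and highest of the 60 steers were 1582, 8054 and 18973 CPM for miR-100, and 2123, 4704 and 22283 CPM for miR-10a. They were 669, 3005 and 6212 CPM for miR-99b, 1305, 2545 and 51349 CPM for miR-10b, and 1020, 2385 and 3974 CPM for miR-125a. For miR-125b they were 761, 1905 and 2683 CPM, and for miR-99a-5p 385, 1243 and 3705 CPM. The order at the ends of this series was nearly constant, with miR-100 the highest member in 56 of 60 steers and miR-99a-5p the lowest in 58. In the middle of the order the ranges of miR-99b, miR-10b and miR-125a overlapped.

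The members differed in their spread. Within Angus the SD of log2 CPM was 0.14 for miR-125a and for miR-125b, between 0.20 and 0.25 for miR-99a-5p, miR-99b, miR-100 and miR-10a, and 0.61 for miR-10b. In Charolais all 7 spread more, from 0.34 for miR-125b to 1.06 for miR-10b. Without 2 libraries described next the Charolais SDs were 0.22 for miR-125b and between 0.27 and 0.37 for the other 6 members.

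**Figure D1:**
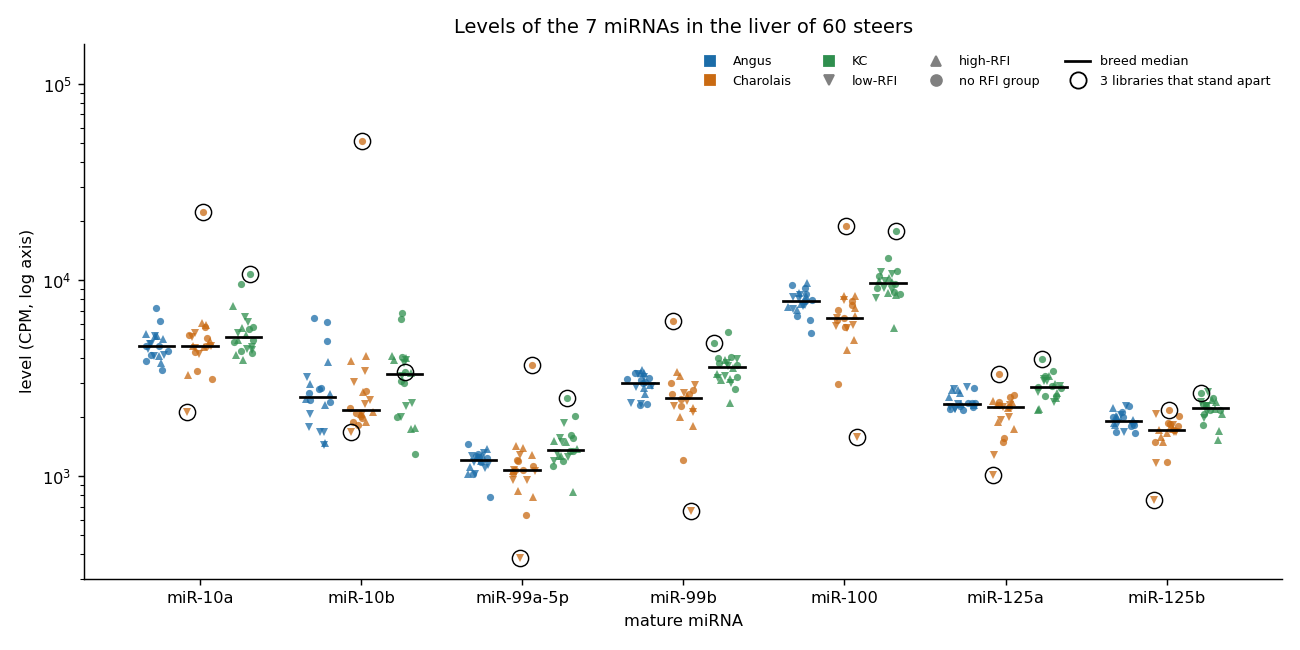
Level of each member in the 60 steers, as CPM on a log axis, by breed (colour) and RFI group (symbol), with the median of each breed as a line and rings around the 3 libraries that stand apart. The miR-125a and miR-125b points lie close together within a breed, miR-10b is spread widely, and 1 Charolais steer reaches 51349 CPM of miR-10b.

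Some libraries, 3 in all, stood apart in these miRNAs, a choice made after their values were seen, and they have to be known before the comparisons. The outlier test given near the end did not flag the third, from KC, in any member, and it flagged other steers that were kept. The first of the 3 is the Charolais steer without an RFI group that is replicate 7. Its miR-10b level was 51349 CPM, against 1675 to 4099 CPM in the other 19 Charolais steers, or 24.1 times their median. No other miRNA among 175 with a median of at least 20 CPM in the breed deviated upward as far. In the same library miR-10a stood at 22283 CPM (4.84 times the median of the others), miR-99a-5p at 3705 CPM (3.46 times), miR-100 at 18973 CPM (2.96 times) and miR-99b at 6212 CPM (2.51 times), and all 5 lay above every other Charolais steer. miR-125a (3317 CPM, 1.48 times) and miR-125b (2175 CPM, 1.26 times) were also the highest of the breed but by little. The ratio of miR-10a to miR-10b was 0.434 in this library and at least 1.19 in the 18 Charolais steers without the libraries apart. The other 3 steers of its sire had 1896 to 3451 CPM of miR-10b, within the range of the breed.

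The steer Charolais low-RFI, replicate 1, was the lowest of its breed in all 7 members. Its miR-100 level of 1582 CPM compared with a median of 6424 CPM in the other 19, a ratio of 0.246, and no other miRNA of 176 was lower relative to the breed. miR-99b (669 CPM, a ratio of 0.261) was next, miR-99a-5p, miR-125b and miR-125a stood at ratios of 0.359, 0.440 and 0.452, and miR-10a and miR-10b at 0.460 and 0.750. The KC steer without an RFI group that is replicate 2 carried the highest KC levels of miR-10a (10718 CPM, 2.16 times the median of the other KC steers), miR-100 (17845 CPM, 1.87 times), miR-99a-5p (2508 CPM, 1.86 times) and miR-125a (3974 CPM, 1.39 times), while its miR-10b (3388 CPM) was near the KC median. The high library in Charolais and this one were thus both the highest of their breed in miR-10a, miR-99a-5p, miR-100 and miR-125a, and miR-10b was high in the first alone.

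The let-7 cluster partners deviated less than miR-99a-5p, miR-99b and miR-100. In these 3 libraries let-7c, let-7e and let-7a-5p stayed between 0.942 and 1.28 times the median of the breed. They have genes in the same clusters and are known for restraining growth. In the 2 libraries where miR-99a-5p was high, let-7c (1.28 and 1.19 times the median) was near miR-125b (1.26 and 1.20 times). Mature let-7a-5p can also come from let-7a genes other than MIRLET7A-2, so its level is not that of the miR-100 cluster alone. The opposite arm of the miR-99a precursor, miR-99a-3p, stood at 0.672 and 0.756 times the median in the 2 libraries where miR-99a-5p was high, and at 1.61 times where it was low. The 5 mesenchymal markers (miR-143, miR-145, both arms of miR-199a and miR-214) summed to 376970 CPM in the Charolais library with high miR-10b, the highest sum of the 60 steers, to 135375 CPM in the low library, the lowest Charolais sum, and to 250556 CPM in the KC library, against breed medians of 174243 and 170062 CPM. These sums are mostly miR-143, which alone had a median of 166040 and a highest level of 374890 CPM over the 60 steers. They say little of the other markers. The high library's total was 6019099 counts with a TMM factor of 0.685, the low one's 2237959 with 1.131 and the KC one's 6759381 with 0.795, where the 60 factors ran from 0.671 to 1.171. The part of cell content, depth and scaling in these deviations was not tested.

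**Figure D2:**
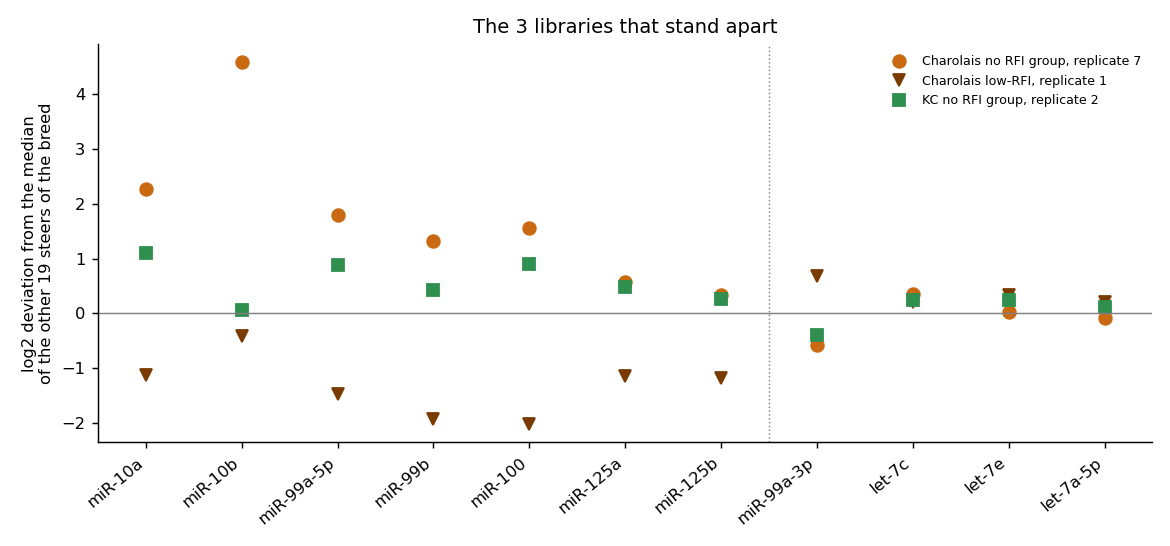
Deviation of the 3 libraries that stand apart, as the log2 level minus the median of the other 19 steers of the breed, for the 7 members (left of the dotted line), miR-99a-3p and 3 let-7 partners. The members run from 4.59 down to −2.02, miR-10b being high in 1 library only, while the let-7 values stay near 0.

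Breed was compared over the 60 steers with edgeR's quasi-likelihood F test, adjusted over all 443 miRNAs tested by the method of Benjamini and Hochberg. miR-99b, miR-100, miR-125a and miR-125b differed between breeds at an adjusted p under 0.05, 4 of the 7 members, against 16.7% of all miRNAs tested (74 of 443). All 4 were highest in KC and lowest in Charolais by their medians. The edgeR adjusted p-values were 0.00672, 0.00462, 0.000126 and 7.9e-05. For miR-99a-5p, miR-10b and miR-10a they were 0.107, 0.147 and 0.402. At an unadjusted p under 0.05 there were 6 members, beside 32.3% of all miRNAs.

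KC exceeded Charolais in these 4 members, of which 4 were called higher and 0 lower, while 16.3% of miRNAs were called in either direction and 9.26% as higher in KC. At an unadjusted p under 0.05 there were 5, beside 27.5%. The lowest, median and highest levels of miR-100 were 5671, 9682 and 17845 CPM in KC and 1582, 6414 and 18973 CPM in Charolais. The ranges overlapped, and 19 of 20 KC steers lay above the Charolais median. The log2 fold change was 0.55 ± 0.13 (SE, edgeR adjusted p = 0.00193), and a two-sided permutation test on log2 CPM gave p = 8.0e-05. miR-99b stood at 2365, 3606 and 5408 CPM in KC and at 669, 2517 and 6212 CPM in Charolais. Again 19 KC steers exceeded the Charolais median, with a log2 fold change of 0.48 ± 0.12 (SE, edgeR adjusted p = 0.00234).

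The miR-125 pair differed by less but with less spread. miR-125a had a lowest, median and highest level of 2169, 2863 and 3974 CPM in KC and of 1020, 2249 and 3317 CPM in Charolais, a log2 fold change of 0.44 ± 0.08 (SE, edgeR adjusted p = 3.1e-05). miR-125b ran from 1531 through 2239 to 2683 CPM in KC and from 761 through 1726 to 2175 CPM in Charolais, a log2 fold change of 0.40 ± 0.07 (SE, edgeR adjusted p = 1.8e-05). For both, 18 of 20 KC steers were above the Charolais median. miR-99a-5p (0.31 ± 0.13, edgeR adjusted p = 0.102) missed the threshold, with levels of 831, 1361 and 2508 CPM in KC and 385, 1070 and 3705 CPM in Charolais. Without the 3 libraries it passed, at 0.38 ± 0.08 (edgeR adjusted p = 0.000355), and so 5 of 7 members were called beside 13.6% of all miRNAs. The other 4 kept log2 fold changes between 0.37 and 0.58 there. With the Charolais library of high miR-10b alone left out, 6 were called beside 16.7%, miR-10a joining at 0.29 (edgeR adjusted p = 0.0432), and without the low Charolais library 4 were called beside 14.5%. Between all breeds, 5 members were called without the high library (19.4% of miRNAs), 4 without the low one (18.1%) and 5 without all 3 (16.8%).

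Against Angus, the log2 fold changes of KC were above 0 for all 7 members but 0 passed by edgeR's adjusted p, beside 10.8% of all miRNAs called and 6.77% called higher in KC. At an unadjusted p under 0.05 there were 5 members (25.3% of all miRNAs). DESeq2 called 0 members beside 58 of 443 miRNAs, and edgeR's likelihood-ratio test 1 beside 55. The nearest was miR-125a, with 2172, 2347 and 2862 CPM in Angus as lowest, median and highest level, and a log2 fold change of 0.23 ± 0.08 (SE, edgeR adjusted p = 0.0501). miR-100 in Angus stood at 5385, 7850 and 9625 CPM, and 19 of 20 KC steers were above the Angus median. Its log2 fold change was 0.35 ± 0.13 (SE, edgeR adjusted p = 0.0746), and the two-sided permutation test on log2 CPM alone gave p = 0.00017. The count of 0 depended on the libraries that stand apart. Leaving out the Charolais steer with high miR-10b gave 4 called members beside 14.4% of miRNAs, leaving out the low Charolais steer gave 3 beside 13.8%, leaving out the KC library gave 0, and leaving out all 3 libraries gave 5 beside 13.4%. The Charolais libraries are not in this contrast and enter it only through what the fit shares among all steers. The 5 were miR-99a-5p, miR-99b, miR-100, miR-125a and miR-125b, at log2 fold changes of 0.25, 0.27, 0.30, 0.21 and 0.18.

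Between Charolais and Angus 0 members passed, where 1.35% of miRNAs did (0.903% as higher in Charolais), and 3 had an unadjusted p under 0.05 (17.2% of all miRNAs). DESeq2 and edgeR's likelihood-ratio test also called 0, beside 14 and 9 of 443 miRNAs. By edgeR's quasi-likelihood test 0 were called without the high library (2.71% of miRNAs), without the low one (3.17%) and without all 3 (1.82%). miR-125b was nearest, at −0.22 ± 0.07 (SE, edgeR adjusted p = 0.0781), with an interval (95%) from −0.37 to −0.08. The value of miR-10b depended on 1 library. The Angus levels were 1443, 2545 and 6395 CPM and the Charolais levels 1675, 2185 and 51349 CPM as lowest, median and highest. The fitted log2 fold change was 0.75 ± 0.32 (SE, edgeR adjusted p = 0.173), and without that library it was −0.24 (edgeR adjusted p = 0.477). The same library turned the KC against Charolais value of miR-10b from −0.56 ± 0.31 to 0.43. These 3 breed comparisons share their groups with each other, so they are not independent.

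**Figure D3:**
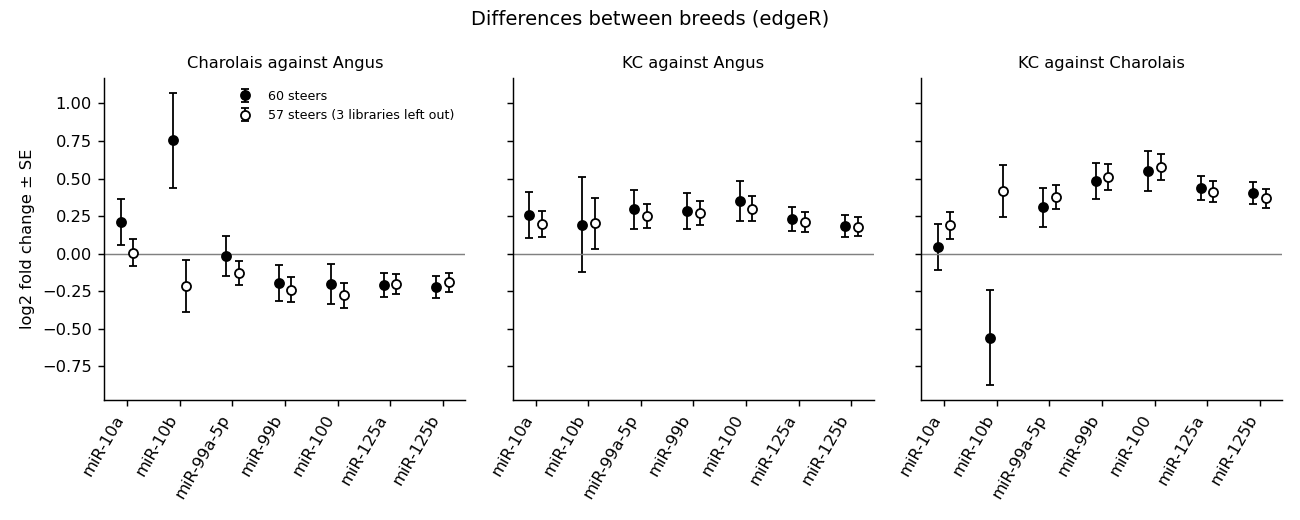
Log2 fold change of each member between breeds, with its SE, in 3 panels, from all 60 steers (filled) and without the 3 libraries that stand apart (open). The 5 members from miR-99a-5p to miR-125b lie above 0 in both panels for KC, whereas miR-10b changes sign between filled and open points in 2 panels.

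The other genes of these clusters and of the HOX loci were read for the same contrasts. All 3 let-7 partners differed between breeds. In KC against Charolais let-7c (−0.23 ± 0.05, edgeR adjusted p = 0.00159) and let-7e (−0.24 ± 0.05, edgeR adjusted p = 0.000216) were lower, opposite in sign to their cluster mates, while let-7a-5p stood at −0.10 ± 0.04 (edgeR adjusted p = 0.137). In KC against Angus let-7a-5p (−0.15 ± 0.04) and let-7e (−0.17 ± 0.05) were lower, at an edgeR adjusted p of 0.0166 each, and let-7c stood at −0.14 ± 0.05 (edgeR adjusted p = 0.0758). miR-99a-3p was the only opposite arm with counts here. It ran from 20.4 to 46.6 CPM around a median of 29.3, with an edgeR adjusted p of 0.568 over the 3 breeds. Of the other miRNAs of the HOX clusters, miR-196a and miR-196b reached at most 0.878 CPM in any steer, and miR-615 was at 0 counts in all 60, which allows up to 1.55 CPM in the shallowest library, counting error only. None of these 3 could be tested.

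The libraries were deepest in KC and shallowest in Angus, and within breeds the levels of 6 members were correlated with depth. Over the 60 steers, with each breed centred on its mean, log2 library total and log2 level had a Pearson r between 0.479 and 0.552 for the 6 members other than miR-10b and of 0.0972 for miR-10b (14 relations with total or TMM factor were computed). The levels are divided by the TMM factor, so a negative r with it is partly built in and no p-value is given. With the log2 TMM factor r was −0.737 for miR-10a, −0.593 for miR-99a-5p, −0.549 for miR-100 and −0.543 for miR-10b. It was −0.526 for miR-99b, −0.287 for miR-125a and −0.150 for miR-125b. For miR-10b this r was −0.167 without the 2 steers farthest in the factor, and −0.877 within Charolais, −0.326 within Angus and −0.242 within KC. For miR-100 r was 0.552 and Spearman's rho 0.580 (permutation p = 1e-05 for each, the smallest that 100000 resamples give, adjusted 3.5e-05 and 0.000105), r was 0.444 without the 2 steers farthest in depth, and it was 0.672 within Charolais, 0.633 within Angus and 0.462 within KC. For miR-125a and miR-125b r was 0.804 and 0.782 within Charolais, 0.413 and 0.434 within Angus, and 0.124 and 0.051 within KC. Without the 3 libraries that stand apart the Charolais values were 0.641 and 0.587. With every library thinned at random to 1930856 counts, miR-99b, miR-100, miR-125a and miR-125b were still called in KC against Charolais, at log2 fold changes of 0.42, 0.50, 0.37 and 0.34. Of all miRNAs 69 of 495 were called there. Thinning equalizes the counts and not what made the libraries differ, and the part of library preparation in the breed differences was not tested.

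Grouping the steers by sire left 2 of the 4 calls. With counts summed over the steers of each sire, miR-125a (0.38 ± 0.09, edgeR adjusted p = 0.00785) and miR-125b (0.32 ± 0.09, edgeR adjusted p = 0.0318) were called in KC against Charolais beside 5.45% of all miRNAs, and miR-99b (0.32) and miR-100 (0.44) were not, at adjusted p-values of 0.162 and 0.153. Between all breeds 1 member was called this way (7.43% of miRNAs), miR-125a, and in KC against Angus 0 were (5.94%). Among the 24 steers without an RFI group 0 members were called (edgeR), where 2.90% of miRNAs were, nor between all breeds (3.38%) or in KC against Angus (3.86%), with KC against Charolais adjusted p-values of 0.111 for miR-125b and 0.146 for miR-125a and log2 fold changes of 0.33 and 0.37. Those 24 steers hold 2 of the 3 libraries that stand apart.

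The balance within a family was then compared, since a ratio of 2 counts from the same library does not depend on scaling. Between the 3 breeds, 7 ratios were tested by two-sided permutation tests, 21 comparisons adjusted together, and the ratio of miR-99a-5p to miR-100 alone passed. Its lowest, median and highest values were 0.130, 0.153 and 0.201 in Angus, 0.136, 0.170 and 0.243 in Charolais, and 0.130, 0.146 and 0.190 in KC. Of the Charolais steers 18 lay above the Angus median, and of the KC steers 1 lay above the Charolais median. On the log2 scale Charolais exceeded Angus by 0.19 (permutation p = 0.00022, adjusted 0.00231), and KC was below Charolais by 0.26 (−0.26, permutation p = 1e-05, the smallest possible, adjusted 0.00021). The difference between KC and Angus was −0.06 (permutation p = 0.119, adjusted 0.418). Without the 3 libraries the first 2 differences were 0.16 and −0.22 (adjusted 0.00703 and 0.00063). These are the 2 members that differ at 1 base within their overlap, and how reads were divided between them was not tested. The within-breed r of this ratio with log2 library total was 0.0048 in KC, −0.171 in Charolais and −0.451 in Angus.

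The ratio of miR-10a to miR-10b had breed medians between 1.82 and 1.90, with values from 0.434 to 3.34, and the largest of its differences was 0.03 on the log2 scale (adjusted 0.989). For miR-125a to miR-125b the breed medians were 1.26 to 1.30, with values from 1.05 to 1.56. Among the pairs made from 1 cluster, miR-99b to miR-125a ran from 0.656 to 1.87 in Charolais, and miR-100 to miR-125b from 1.98 to 8.72 in the same breed. With log2 library total, breeds centred, miR-100 to miR-125b had r = 0.374 and rho = 0.463 (adjusted permutation p = 0.0295 and 0.00196). For miR-99a-5p to miR-125b r was 0.303 and rho 0.344 (adjusted permutation p = 0.0878 and 0.0274). For the remaining ratios the adjusted permutation p was at least 0.0643.

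Steers high in 1 member tended to be high in others. Pearson correlations of breed-centred log2 CPM over the 60 steers ran from 0.190 to 0.949 for the 21 pairs of members, with a median of 0.665, and 19 pairs passed at an adjusted permutation p under 0.05. All pairs share the libraries, their depth and their scaling. The highest values were those among miR-99a-5p, miR-99b and miR-100 and the one between the miR-125 pair. For miR-99a-5p and miR-100 r was 0.949 and rho 0.850, for miR-99b and miR-100 r was 0.947 and rho 0.880, for miR-99a-5p and miR-99b r was 0.904 and rho 0.784, and for miR-125a and miR-125b r was 0.876 and rho 0.817 (permutation p = 1e-05 each, adjusted at most 3.0e-05). Leaving out the 2 steers farthest in the first member gave 0.906, 0.880, 0.817 and 0.819. Within Angus, which holds none of the libraries apart, r was 0.791, 0.750, 0.716 and 0.764. The differences between these correlations were not tested, and neither was the sharing of reads in the first pair.

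The 3 pairs made from 1 cluster gave 0.663 (miR-99a-5p and miR-125b), 0.664 (miR-100 and miR-125b) and 0.708 (miR-99b and miR-125a), with 0.463, 0.443 and 0.481 as rho, and lay in the middle of the 21. The lowest values were those of miR-10b with miR-125b (r = 0.190, rho = 0.0035, adjusted permutation p = 0.169) and with miR-125a (r = 0.294, rho = 0.0747, adjusted permutation p = 0.0817). Its partner in the seed, miR-10a, gave r = 0.665 and rho = 0.345, and r fell to 0.344 without the 2 farthest steers. Without the 3 libraries the 21 values ran from −0.0680 to 0.890 with a median of 0.376, and 15 passed. The 4 highest pairs stood at 0.890, 0.886, 0.818 and 0.812 there and those with miR-10b at 0.376 or less.

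**Figure D4:**
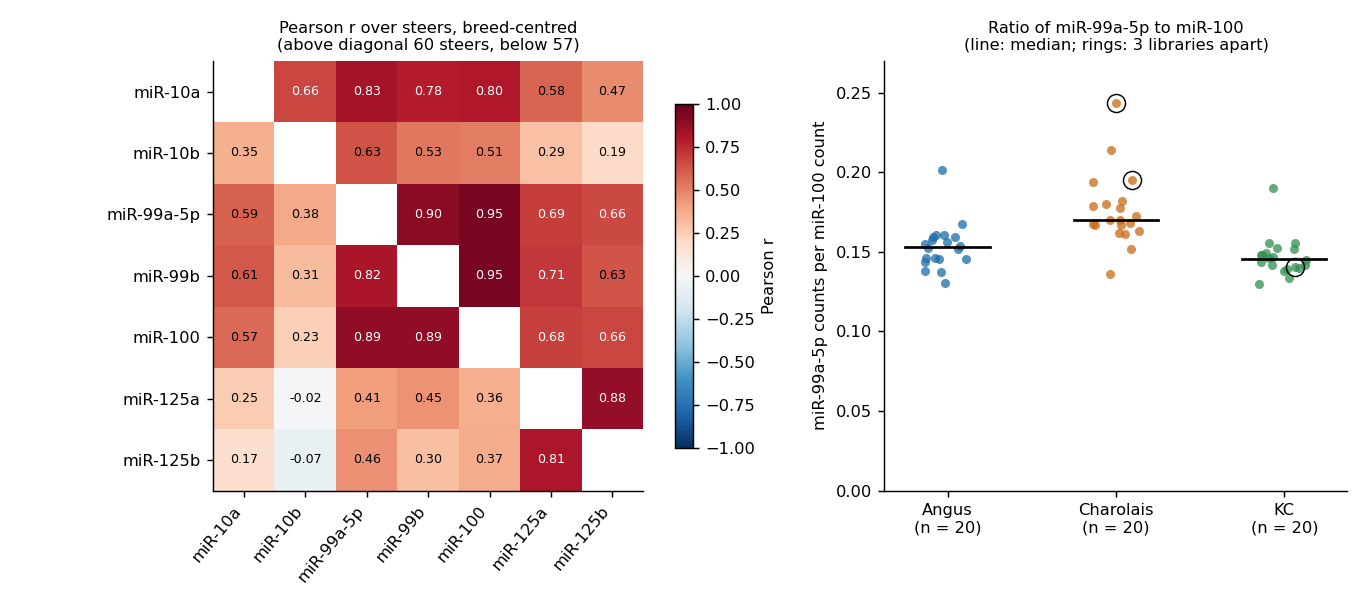
Left, Pearson r between members over steers after centring each breed (above the diagonal 60 steers, below it 57 without the libraries apart). Right, counts of miR-99a-5p per count of miR-100 in each steer, with medians of 0.153, 0.170 and 0.146 as lines and the libraries apart ringed. The blocks of miR-99 with miR-100 and of the 2 miR-125 stay dark on both sides, and 18 of 20 Charolais steers lie above the Angus median in the ratio.

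Of the let-7 partners none passed with its cluster mates in 5 pairs tested with r between −0.230 and 0.166 (smallest adjusted permutation p = 0.242 for r and 0.159 for rho). miR-99a-5p and its own opposite arm gave r = −0.517 and rho = −0.282 (permutation p = 0.0004 and 0.0368, adjusted 0.0024 and 0.159), with r of −0.720 in Charolais, −0.190 in Angus and −0.0892 in KC, and r was −0.243 (adjusted 0.232) without the 3 libraries. Outside the families, the miRNAs most like each member were named by the highest breed-centred r among 436. For miR-10a they were miR-191 (0.843), miR-26a (0.812) and miR-374a (0.808). miR-10b was closest to miR-9-5p (0.686), miR-143 (0.677) and miR-181d (0.620). miR-99a-5p, miR-99b and miR-100 each had miR-2285bn and miR-2285cj among their 3 closest, with r from 0.844 to 0.906. These belong to the miR-2285 family of ruminants and stood at medians of 44.5 and 24.3 CPM. The third was miR-2285k for miR-99a-5p (0.854) and miR-100 (0.875) and miR-1271 for miR-99b (0.860). miR-125a was nearest to miR-2285cj (0.618), miR-2285bn (0.584) and miR-151-5p (0.573), and miR-125b to miR-11971 (0.655), miR-151-5p (0.635) and miR-2285cj (0.538). Without the 3 libraries miR-191, miR-2285bn, miR-1271 and miR-151-5p led their members with r from 0.434 to 0.804. miR-199b led miR-10b there at 0.608, with miR-9-5p and miR-181d next, and miR-143 was no longer among its 3 closest.

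The question of the study was whether liver miRNAs differ between steers of low and high feed efficiency. In none of the 3 breeds was a member called, at the study's rule of an unadjusted p under 0.05 and a fold above 1.5. The rule called 1.82% of miRNAs in KC, 1.88% in Charolais and 2.41% in Angus with edgeR. At an unadjusted p under 0.05 alone 0 of 7 passed in each breed, beside 3.64% of all miRNAs in KC, 5.09% in Charolais and 3.75% in Angus. DESeq2 called 0 members as well, beside 7 of 385 miRNAs in KC, 6 of 373 in Charolais and 8 of 373 in Angus. edgeR's likelihood-ratio test also called 0, beside 8 of 385, 7 of 373 and 10 of 373. The 21 log2 fold changes of low-RFI over high-RFI lay between −0.37 and 0.20. The smallest of the 21 exact two-sided permutation p-values was 0.145.

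miR-10b in Angus had the largest of these differences. Its lowest, median and highest levels were 1443, 1734 and 3216 CPM in 6 low-RFI steers, 1476, 2545 and 3838 CPM in 6 high-RFI steers, and 2397, 2798 and 6395 CPM in the 8 without a group. Of the low-RFI steers 1 lay above the median of the high-RFI steers, and the ranges overlapped over most of their length. The log2 fold change was −0.37 ± 0.20 (SE, edgeR adjusted p = 0.969), with an interval (95%) from −0.78 to 0.05. It was −0.21 without high-RFI replicate 1 and −0.58 without low-RFI replicate 6. The mesenchymal markers, whose sum was 116116 to 169169 CPM in these low-RFI and 151012 to 197344 CPM in the high-RFI steers, had a median log2 fold change of 0.0045 in the fit, where 3 of the 5 lay above 0 and 0 were called, and their part was not tested. The other 6 members in Angus lay between −0.10 and −0.0029 with SEs of at most 0.10.

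In Charolais the 7 log2 fold changes lay between −0.26 and −0.12, where the median of all miRNAs tested was 0.0027. The largest, miR-125a, had 1020, 1975 and 2314 CPM in low-RFI and 1746, 2274 and 2424 CPM in high-RFI steers, and its log2 fold change was −0.26 ± 0.17 (SE, edgeR adjusted p = 0.987). Of the low-RFI steers 1 lay above the median of the high-RFI steers. The low library named above is 1 of these 6 low-RFI steers, and without it the 7 values lay between −0.09 and 0.07 (edgeR adjusted p at least 0.987), with 0 called beside 1.90% of miRNAs. With the sire as a block, 6 members were called lower in low-RFI Charolais steers beside 12.9% of all miRNAs, but 1 sire alone had steers in both groups, 4 high-RFI and 1 low-RFI, and that 1 is the low library. The same block called 0 members in Angus (2.95% of miRNAs), by edgeR. In KC too 1 sire alone had steers in both groups, with 1 low-RFI steer. The direction of miR-10a, miR-10b and miR-99b in KC turned with that block (−0.32, 0.12 and −0.08), which rests on this 1 steer. In KC miR-10b stood at −0.07 ± 0.24 and the others between 0.03 and 0.20, with the median of all miRNAs at 0.03. The largest there was miR-99a-5p, with 1191, 1405 and 1876 CPM in low-RFI and 831, 1322 and 1517 CPM in high-RFI steers (0.20 ± 0.14, edgeR adjusted p = 0.966). It was 0.07 without high-RFI replicate 6 and 0.09 without low-RFI replicate 4.

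**Figure D5:**
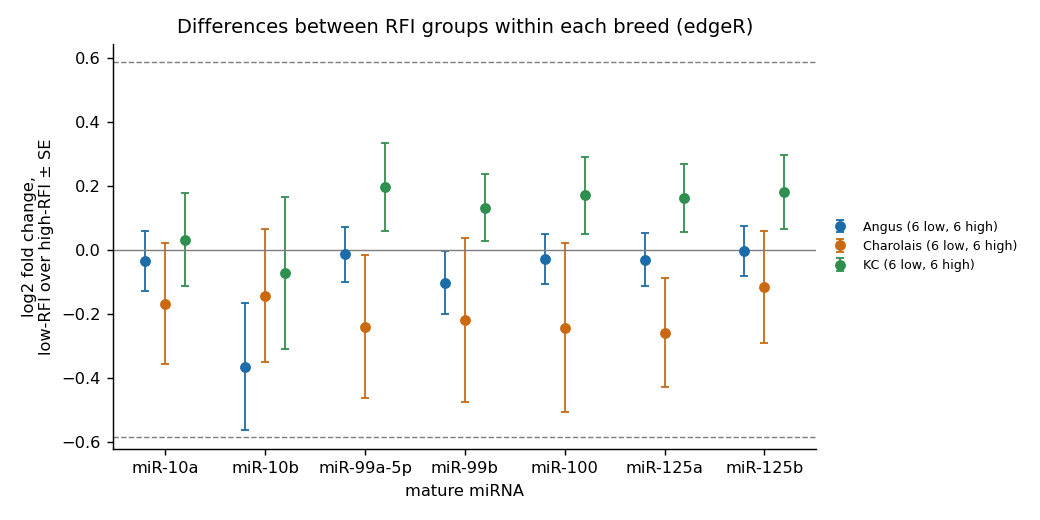
Log2 fold change of low-RFI over high-RFI steers for each member in each breed, with its SE and 6 steers a group (dashed lines at a fold of 1.5). All points lie between −0.37 and 0.20, inside the dashed lines, with miR-10b in Angus the lowest.

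The intervals bound what 6 against 6 steers can say. None of the 21 reached a rise of 1.5 times, the highest bound being 0.49, and 5 reached a fall of 1.5 times (0.585 on the log2 scale): miR-10b in Angus and miR-99a-5p, miR-99b, miR-100 and miR-125a in Charolais, with bounds down to −0.80. In a fit of all 36 grouped steers 0 members and 0 of 426 miRNAs (0%) passed an adjusted p under 0.05, and 0 members had an unadjusted p under 0.05, as 3.05% of miRNAs did. The log2 fold changes lay between −0.22 and −0.01 there, the lowest again miR-10b (−0.22 ± 0.14, edgeR adjusted p = 0.956). The interaction of RFI group with breed passed in 0 members and 0 miRNAs (0%), and 3.76% of miRNAs but 0 members had an unadjusted p under 0.05. DESeq2 and the likelihood-ratio test each called 1 miRNA for the interaction, not a member.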

How the data were processed

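The deposited files hold raw read counts per mature miRNA and precursor, 1 file per steer. Per the labels and methods, the authors prepared TruSeq small RNA libraries, clipped adaptors with cutadapt 1.16, kept reads by length, removed other small RNAs, aligned with Bowtie 1.1.1 to UMD3.1 and counted with miRDeep2, without normalization. Files of KC list 52 more pairs than the others, none of them a member.

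Each count was averaged over precursors and rounded. Those reaching 1 CPM in 6 or more steers were fitted with edgeR 4.0.16 (R 4.3.3, TMM, quasi-likelihood F test, Benjamini-Hochberg adjustment), tested on simulated data. RFI groups were compared within breeds (exact permutation tests over 924 relabelings, smallest p 0.00216) and breeds over 60 steers (100000 resamples), on log2 CPM (prior count 0.5). DESeq2 1.42.0 served for alternatives, and Python 3.11.15 with scipy 1.17.1 for the rest. The upper limits given for counts of 0 cover counting error only, while the intervals of fold changes include the spread between steers. Groups came from the labels.

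The members, gene lists and tests were chosen with earlier results of these data known. Named besides the members are their other arms, let-7 partners, other HOX miRNAs and the 3 miRNAs most correlated with each. The study's predicted miRNAs were not analysed here.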

Additional observations from a re-analysis of the deposited data

Results flagged for a closer look

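Of 63 sets of 6 or 8 steers examined (7 members in 9 groups), 10 had a highest or lowest steer whose gap to the next exceeded Dixon's 95% critical value, where chance flags about 1 in 20 groups, or 3.15 here. The 7 members were read in the same steers and are correlated, so the 63 sets are not independent. Flags of several members can come from 1 steer, and an excess over 3.15 was not tested. Of the 10, 7 came from the 2 Charolais libraries that stand apart and none from the KC library that stands apart. Among Charolais low-RFI steers, replicate 1 was far below the others in miR-10a (2123 CPM), miR-99a-5p (385 CPM), miR-99b (669 CPM) and miR-100 (1582 CPM). Among Charolais steers without an RFI group, replicate 7 was far above the others in miR-10a (22283 CPM), miR-10b (51349 CPM) and miR-99a-5p (3705 CPM). In KC high-RFI steers, replicate 6 was far below the others in miR-99a-5p (831 CPM) and miR-100 (5671 CPM). In Angus steers without an RFI group, replicate 6 was far above the others in miR-125a (2803 CPM). What set these steers apart was not tested.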

How the results depend on the processing

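The alternatives were another scaling (DESeq2 size factors or library totals), other tools, no filter on low counts, summed precursors, thinning, sires, the 24 steers without an RFI group, and leaving out steers. Of the planned recomputed counts of called members, 75 stayed within 1.5 times the reported count and 8 did not. The 36 that left out 1 steer of an RFI comparison all stayed at 0. Alternatives that leave out the libraries standing apart were chosen after seeing the data. The causes of the changes below were not tested.

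With the sire as a block, 6 members were called in Charolais in place of 0, and in KC the log2 fold changes for RFI turned to −0.3226 for miR-10a, 0.1226 for miR-10b and −0.0771 for miR-99b. In Charolais and in KC the block compares steers of 1 sire alone, with 1 low-RFI steer. Between breeds 1 member was called with counts summed per sire and 0 in the 24 steers, in place of 4. In KC against Charolais 2 and 0 were called, in place of 4. With library totals miR-99a-5p was called as well. It passed in KC against Charolais (0.3786, edgeR adjusted p = 0.00766, 66 of 443 miRNAs) and between breeds (edgeR adjusted p = 0.0156, 67 of 443). In KC against Angus 1 was called with library totals (43 of 443 miRNAs) and by the likelihood-ratio test (55 of 443), in place of 0. With precursors summed miR-125a stood at 0.2328 there (edgeR adjusted p = 0.0431). Without the 3 libraries 5 were called (13.4% of miRNAs).

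These log2 fold changes changed sign. For RFI, library totals gave 0.0127 for miR-125b in Angus and 0.0523 for miR-125b and 0.0109 for miR-99a-5p over the 3 breeds. There miR-125b was 0.0111 with DESeq2 size factors and by DESeq2, 0.0161 unfiltered, 0.0012 summed and 0.0187 thinned. In Charolais against Angus miR-99a-5p was 0.0137 with DESeq2 size factors, 0.0136 by DESeq2, 0.1365 per sire and 0.205 in the 24 steers. miR-10a was −0.0302 by DESeq2, miR-99b 0.0112 per sire and miR-100 0.0352 in the 24 steers. miR-10b was −0.2344 by DESeq2 and −0.2136 without the 3 libraries. In KC against Angus miR-10b was −0.0655 in the 24 steers. In KC against Charolais miR-10a was −0.0055 with DESeq2 size factors, −0.0139 per sire and −0.1359 in the 24 steers, and miR-10b was 0.4132 by DESeq2 and 0.4175 without the 3 libraries.

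Without the 3 libraries the log2 ratio of miR-10a to miR-10b was 0.1242 in Charolais against Angus, −0.0273 in KC against Angus and −0.1516 in KC against Charolais. That of miR-125a to miR-125b was −0.0201 in Charolais against Angus, and that of miR-99a-5p to miR-125b 0.0057 in KC against Charolais. The correlation of miR-10b with miR-125b was −0.0516 with library totals and −0.068 without the 3 libraries, and with miR-125a −0.021 without them. With library totals miR-10a with miR-125b no longer passed (0.203, adjusted permutation p = 0.180). Neither did miR-10b with miR-99b (0.3848, adjusted permutation p = 0.0514) or with miR-100 (0.3709, adjusted permutation p = 0.0545).

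With each of the 12 steers of a breed's RFI comparison left out in turn, 0 members were called. For the breed comparisons only the 3 libraries standing apart were left out, one at a time, and not the other 57 steers. That gave 4 to 5 called members between breeds, 0 to 4 in KC against Angus, 4 to 6 in KC against Charolais and 0 in Charolais against Angus. For RFI in Angus the log2 fold changes ran from −0.0947 to 0.0026 for miR-10a, −0.5806 to −0.2147 for miR-10b, −0.073 to 0.0333 for miR-99a-5p, −0.0764 to 0.0331 for miR-100, −0.0822 to 0.0037 for miR-125a and −0.0569 to 0.0392 for miR-125b. In Charolais they ran from −0.2559 to 0.015 for miR-10a, −0.3107 to 0.008 for miR-99b and −0.2115 to 0.0663 for miR-125b, each high end without low-RFI replicate 1. In KC they ran from −0.0742 to 0.1549 for miR-10a, −0.2264 to 0.0081 for miR-10b and 0.067 to 0.2445 for miR-99a-5p. With 1 of the 3 libraries left out, in Charolais against Angus they ran from −0.0342 to 0.2779 for miR-10a, −0.237 to 0.8134 for miR-10b and −0.178 to 0.0575 for miR-99a-5p. In KC against Charolais they ran from −0.0419 to 0.2854 for miR-10a and −0.6333 to 0.4343 for miR-10b.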
